A study of Mus musculus with 2 samples.

Results

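Suprabasal differentiating keratinocytes (KCs) are described here in single-cell RNA-seq of mouse dorsal skin, with 1 library from vehicle-treated skin (Ctrl) and 1 library from MC903-induced AD. Cells were chosen by their own transcripts. Barcodes were kept if they had between 200 and 6000 genes and no more than 10% of UMIs (unique molecular identifiers, each standing for 1 captured transcript) from mitochondrial genes. A kept barcode was a member when Krt1, Krt10 and Krtdap made up at least 0.5% of its UMIs. Members also had inner root sheath and hair keratins below 0.2% and no UMI of Pdgfra, Ptprc or Pecam1, which mark fibroblasts, leukocytes and endothelium. This rule found 356 members among 19578 kept cells of the series, 348 in Ctrl and 8 in AD. All animals were female C57BL/6J mice aged 7 weeks, whose back was depilated 24 h before the first application. The Ctrl group received ethanol without an active agent, and the AD group received MC903 (calcipotriol, an analog of vitamin D) in ethanol at 4.5 nmol per application. Both were applied once a day for 10 days to 2 cm × 2 cm of skin, which was taken on day 10. No allele was altered in either group. The number of mice behind a library is not given in the sources used here, and MC903 is an irritant model of AD in which the ligand of the vitamin D receptor is itself the trigger. With 1 library per group no difference was tested. Every interval given is 95% and covers counting error only.

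The epidermis renews from a basal layer of Krt5 and Krt14 KCs attached to the basement membrane. Cells that leave this layer switch to the keratin pair Krt1 and Krt10, strengthen their desmosomes and later, in the granular layer, make filaggrin, loricrin and the small proteins of the cornified envelope, which are cross-linked into the barrier. In wounded or inflamed epidermis, suprabasal cells replace part of the Krt1 and Krt10 program with Krt6, Krt16 and Krt17. Vitamin D signalling acts through the nuclear receptor Vdr, and Cyp24a1, which inactivates vitamin D, is its best known target gene.

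Cells that met the rule were 3.05% of the 11399 kept Ctrl cells (exact Clopper-Pearson interval 2.74% to 3.39%) and 0.0978% of the 8179 kept AD cells (0.0422% to 0.193%). Relative to other KCs the order was the same. Among members and KCs outside the rule in which Krt5 and Krt14 reached 0.5% of UMIs, members were 348 of 648 cells in Ctrl (53.7%, 49.8% to 57.6%) and 8 of 110 in AD (7.27%, 3.19% to 13.8%). The Ctrl members held 7020214 UMIs, with a median of 19378 per cell, and the AD members held 202410, with a median of 22896. A count of 0 therefore allows up to 0.427 CPM (the usual depth-scaled RNA-seq unit, UMIs of a gene over all UMIs of the pooled cells) in the pooled Ctrl members and 14.8 CPM in the pooled AD members. The libraries shared 35 barcodes, and 0 of these were members in both.

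The chosen share itself differed in range between the libraries. Krt1, Krt10 and Krtdap together made up a median of 3.95% of UMIs in the Ctrl members (0.511% to 10.8%) and 0.672% in the AD members (0.519% to 6.81%). The cells next to the threshold were at 0.511% inside and 0.498% outside in Ctrl, and at 0.519% inside and 0.442% outside in AD. In Ctrl 44 members were at 0.5% to 1%, 51 at 1% to 2%, 123 at 2% to 5% and 130 above 5%. In AD these counts were 6, 1, 0 and 1, so that 7 of 8 AD cells were below 2%. In Ctrl 443 kept cells passed the share, of which 95 were left out because they carried a UMI of Pdgfra (64 cells), Ptprc (21) or Pecam1 (16), whereas 0 of the 8 AD cells were left out. The hair and sheath keratins removed 0 cells in either library.

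**Figure D1:**
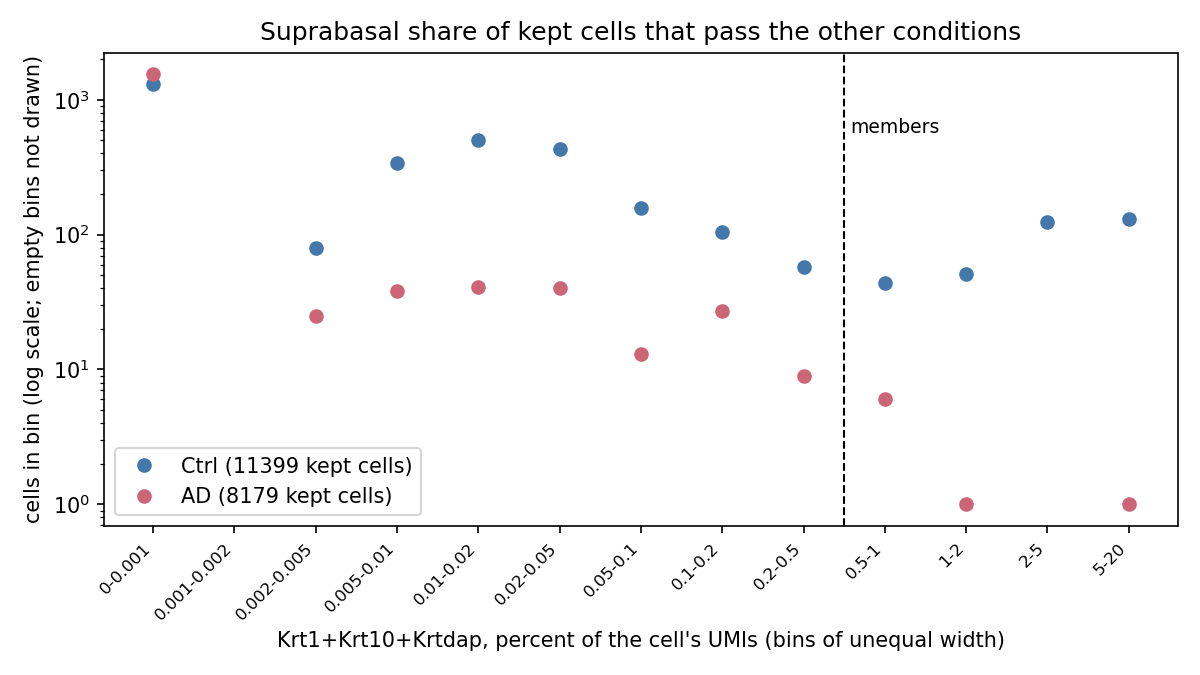
Number of kept cells (log scale) by the percent of a cell's UMIs that came from Krt1, Krt10 and Krtdap, for cells that met the other conditions; the dashed line marks the 0.5% threshold and empty bins are not drawn. Ctrl has a second maximum at 2% and above, with 123 and 130 cells, where AD has 0 and 1.

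The label was checked with 7 suprabasal markers outside the rule (Krt77, Sbsn, Dmkn, Calm4, Dsc1, Dsg1a and Lor). They summed to 33434 CPM in the Ctrl members and 13809 CPM in the AD members, against 1031 CPM in the other kept Ctrl cells. Krt77, a suprabasal keratin that the rule did not use, was at 12355 CPM in Ctrl (12273 to 12437) and at 4511 CPM in AD (4223 to 4813). In Ctrl cells with a Ptprc UMI, which should lack it, Krt77 was at 579 CPM, with a UMI in 16.7% at a median of 4218 UMIs per cell. Of the Ctrl members 96.8% had a Krt77 UMI at a median of 19378 UMIs per cell, with a level per cell of 2358 CPM at the lower quartile and 5533 CPM at the median, whereas only 3 of the 8 AD members had one. Lor (loricrin, the main protein of the cornified envelope) was at 2989 CPM over all Ctrl members, 109 of which had a UMI. Over all AD members it was at 257 CPM, with UMIs in only 1 of them. By the level of Krt77 the label held for most Ctrl members, some of which also carried basal or upper follicle keratins as described below. It did not hold for the AD members as a group, in which the levels of Krt1, Krt77 and Lor came almost wholly from 1 cell, so these are called members by the rule alone.

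Krt10 in cells that should lack it differed between the libraries. Whether its UMIs there came from free RNA or from mixed cells was not tested. Krt10 was at 917 CPM in Ctrl cells with a Ptprc UMI, 32.9% of which had a Krt10 UMI at a median of 4218 UMIs per cell, and at 3.59 CPM in such AD cells, with a UMI in 2.49% at a median of 5880. Markers of other cell types were then read as whole lists. The 8 upper follicle and outer root sheath markers summed to 5524 CPM in Ctrl and 15128 CPM in AD. Krt79 was the highest of them in both libraries (2548 and 4911 CPM), and Lgr6 and Krt75 were at 0 in AD. That AD sum was above the 13809 CPM of the 7 suprabasal markers. The 6 basal KC markers summed to 1578 and 5958 CPM, with Krt14 highest (700 and 5889 CPM) and Itgb4 and Krt15 at 0 in AD. Of 12 fibroblast markers, 11 had UMIs in the Ctrl members (summed 1048 CPM, with Col1a1 highest at 299 CPM and Pdgfra at 0 by the rule), against 35179 CPM in the other Ctrl cells, and 3 in the AD members (49.4 CPM, with Fbln1 at 39.5 CPM and Col1a2, Col3a1 and Lum at 0). Macrophage and dendritic cell markers summed to 67.8 CPM in Ctrl, with Cd74 highest at 16.7 CPM, and all 12 were at 0 in AD. The 6 endothelial markers summed to 2.14 CPM in Ctrl, with Pecam1 and Cdh5 at 0, and all were at 0 in AD. The list of T cell markers was carried mainly by Trbc2, at 167 CPM of 181 CPM in Ctrl and 222 CPM of 222 CPM in AD, while Cd3e and Cd3d were at 0 in AD. Of 6 Langerhans cell markers Epcam gave 272 CPM of 301 CPM in Ctrl and 410 CPM of 410 CPM in AD, with Cd207 at 0 in AD. Hemoglobin and other erythroid transcripts summed to 545 CPM in Ctrl, with Hbb-bs highest at 282 CPM, and 14.8 CPM in AD. Neutrophil and mast cell markers (54.8 CPM in Ctrl and 44.5 CPM in AD, S100a9 highest), sebaceous markers (20.7 CPM and 425 CPM, Mgst1 highest), pericyte and muscle markers (14.4 CPM and 0, Acta2 highest in Ctrl), melanocyte and Schwann cell markers (37.9 CPM and 4.94 CPM, with Tyrp1 the only one with a UMI in AD) and sheath and matrix markers (26.9 CPM and 69.2 CPM, Tchh highest) were also read. The part of carried-over RNA in the differences below was not tested.

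Among the Ctrl members the genes outside the rule were ordered along the suprabasal share. Krt77 was at 2717 CPM in cells with a share of 0.5% to 1%, 2430 CPM at 1% to 2%, 8496 CPM at 2% to 5% and 19555 CPM above 5%. Mt4, a metallothionein of stratified epithelia, was at 55.9, 46.5, 817 and 909 CPM in the same bins. Krt14 (3072, 2110, 398 and 81.9 CPM) and Krt79 (6823, 8815, 2572 and 46.8 CPM) were instead highest below 2%. Lor followed neither pattern, with 125 CPM in the lowest bin, 3755 and 3794 CPM in the middle bins and 2770 CPM above 5%. Lgals7 (galectin-7) varied least of these genes, between 9511 and 12645 CPM.

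**Figure D2:**
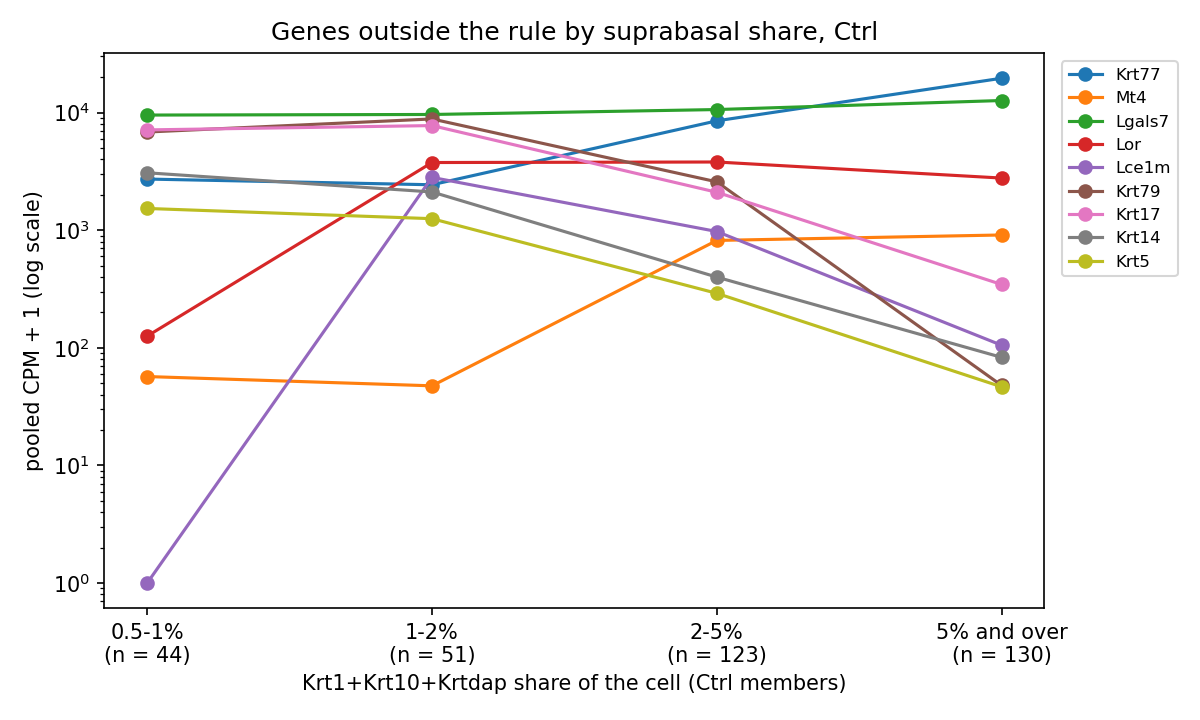
Pooled CPM plus 1 (log scale) of 9 genes outside the rule in Ctrl members, by bins of the Krt1, Krt10 and Krtdap share, with the number of cells per bin below the axis. Krt77 and Mt4 are highest above 2%, Krt79, Krt17, Krt14 and Krt5 are highest below 2%, and Lor and Lce1m are highest between 1% and 5%.

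The Ctrl members were divided further with genes that the rule did not use, by whether Lor, Krt79 with Krt17, or Krt5 with Krt14 reached 0.5% of UMIs. These limits were set after the values were seen, so the groups are ranges and not cell types, and 17, 21 and 17 cells lay within 2-fold of the respective limits. Lor reached it in 28 cells (8.05%), Krt79 with Krt17 in 91 (26.1%), Krt5 with Krt14 in 32 (9.20%) and none of them in 203 (58.3%). Only 5 cells were in both the Lor and the Krt79/Krt17 group, 1 in both the Krt79/Krt17 and the Krt5/Krt14 group and 0 in both the Lor and the Krt5/Krt14 group. The largest group, with none of these, had the highest suprabasal share, at a median of 5.27%, and was led by Mt4 (1110 CPM against 48.7 CPM in the other members), Gadl1 (138 against 5.49 CPM), the serpin gene Serpinb12 (157 against 18.3 CPM), the connexin gene Gjb5 (201 against 32.2 CPM) and the stefin gene Cstdc5 (701 against 115 CPM). Krt77 was at 15815 CPM in this group.

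The Lor group was led by genes of the granular layer. The 27 measured genes of a granular and cornified list summed to 95866 CPM, against 6041 CPM in the group with none of the limits reached. Without Lor, which defines the group, the other 26 summed to 69591 and 5806 CPM. Filaggrin (Flg) was at 20495 CPM against 1460 CPM, hornerin (Hrnr) at 6805 against 478 CPM and Flg2 at 6582 CPM, against 40.1 CPM over all other members. The late cornified envelope genes led the group, with Lce1m at 6701 CPM against 1.11 CPM in the other members, but only 28.6% of the 28 cells had a Lce1m UMI. The epithelial cytokine genes Il18 (721 against 1.75 CPM) and Il36a (177 against 0.637 CPM) and the antimicrobial gene Wfdc21 (2852 against 16.7 CPM) were also among the 20 leading genes. Members of the Lce1 family are near-identical copies, so their separate values are uncertain.

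The promoter of Lor is shown because Lor defines this group, beside that of Krt77, which was high in the group with none of the limits reached. Each runs from 250 bases before to 50 bases after the RefSeq start, read in the direction of transcription on the minus strand of GRCm38.p6 (Lor at chr3:92083093-92083392, Krt77 at chr15:101869656-101869955). Capitals mark TGANTCA, the core of AP-1 sites, which reads the same on both strands.
Lor: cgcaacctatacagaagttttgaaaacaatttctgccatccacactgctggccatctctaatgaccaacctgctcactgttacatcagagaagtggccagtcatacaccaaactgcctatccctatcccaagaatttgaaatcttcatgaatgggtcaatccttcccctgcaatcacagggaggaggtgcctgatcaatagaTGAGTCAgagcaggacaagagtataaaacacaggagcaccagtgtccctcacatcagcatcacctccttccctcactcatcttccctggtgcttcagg
Krt77: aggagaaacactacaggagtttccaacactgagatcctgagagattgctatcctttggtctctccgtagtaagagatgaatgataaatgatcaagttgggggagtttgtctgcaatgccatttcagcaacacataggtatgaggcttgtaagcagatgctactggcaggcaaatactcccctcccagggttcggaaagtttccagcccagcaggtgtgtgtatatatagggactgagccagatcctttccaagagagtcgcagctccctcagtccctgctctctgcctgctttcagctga
The Lor window holds 1 match, which begins at -48 relative to the start, and the Krt77 window holds 0. The motif was in 7.81% of 32851 RefSeq promoter windows of this length. It was in 3 of the 16 leading genes of the Lor group that have a promoter entry, in 2 of 14 of the Krt79/Krt17 group, in 1 of 15 of the Krt5/Krt14 group and in 1 of 14 of the group with none of the limits reached, which describes these windows and says nothing about binding. The 3 genes include Lor itself, which defines the group. A gene was counted if any of its windows held the motif, whereas the 7.81% counts single windows.

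The Krt79/Krt17 group carried genes known from the upper hair follicle. Cst6 (cystatin M/E, an inhibitor of cathepsins) was at 18090 CPM against 1227 CPM in the other members, the beta-defensin gene Defb6 at 1569 against 81.5 CPM, the follicle transcription factor Sox9 at 320 against 51.2 CPM and Foxc1 at 166 against 10.3 CPM. These cells had less Krt77 (3477 CPM) and a median suprabasal share of 1.55%. Fibroblast collagens (Col1a1, Col1a2 and Col3a1) summed to 2225 CPM in this group, against 317 CPM in the group with none of the limits reached, and their part in its profile was not tested. The Krt5/Krt14 group, with a median share of 1.12%, had the hemidesmosome genes Col17a1 (1142 against 64.2 CPM), Itga6 (502 against 39.9 CPM) and Itgb4 (130 against 3.06 CPM). It also led in the proliferation gene Mki67 (206 against 18.6 CPM) and in the skin chemokine gene Ccl27a (548 against 43.2 CPM).

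**Figure D3:**
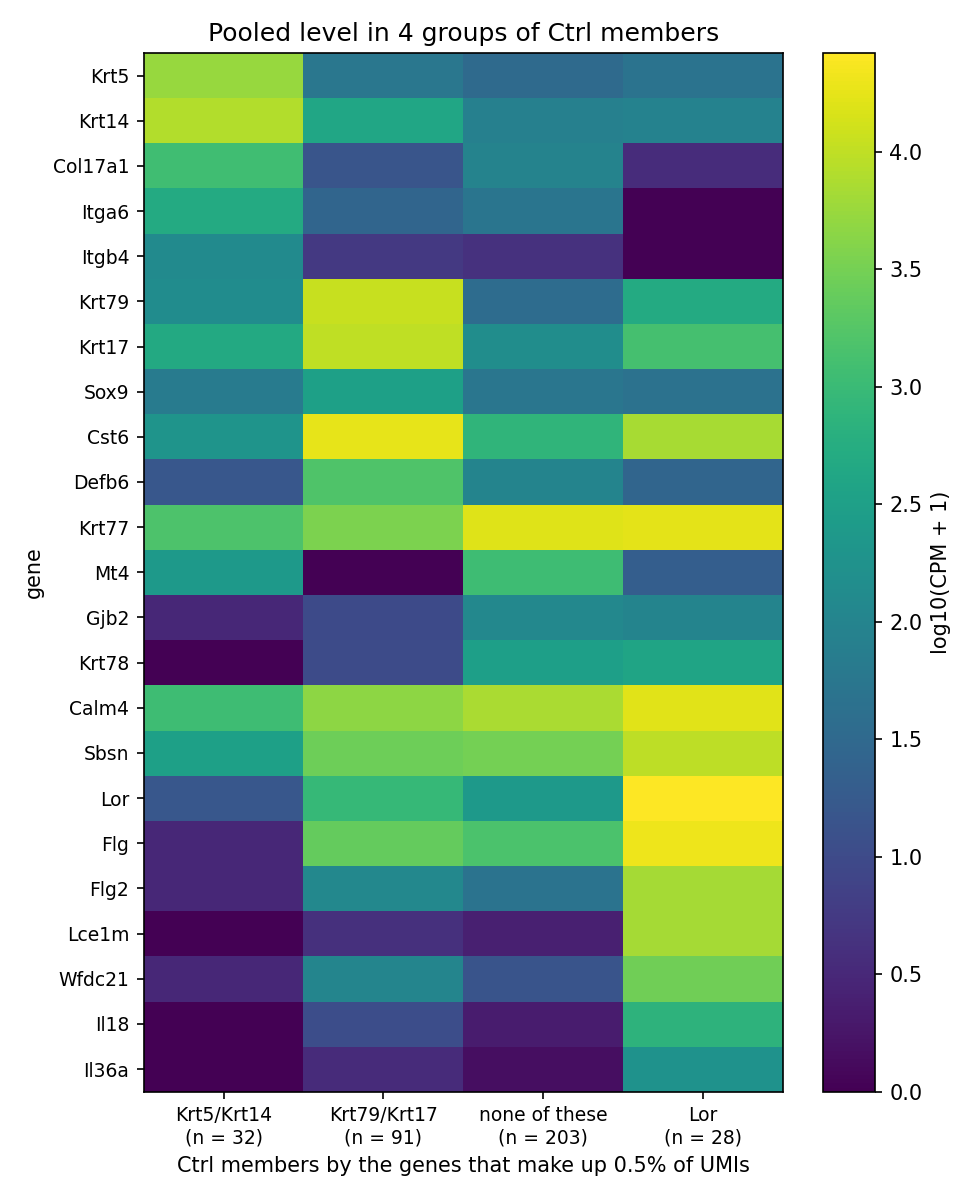
Pooled level, as log10 of CPM plus 1, of 23 genes (rows) in 4 groups of Ctrl members (columns, with the number of cells). Lor, Flg, Flg2, Lce1m, Wfdc21, Il18 and Il36a are highest in the Lor column, Krt79, Krt17, Cst6, Defb6 and Sox9 in the Krt79/Krt17 column, Col17a1, Itga6 and Itgb4 in the Krt5/Krt14 column, and Mt4 and Gjb2 in the column with none of these.

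The 8 AD members were described cell by cell. The first had 51903 UMIs and a share of 6.81%, with 866 UMIs of Krt1, 2191 of Krt10, 479 of Krtdap, 897 of Krt77 and 52 of Lor. It had 0 UMIs of Krt14 and Krt5, and it also had 229 UMIs of Krt16, 47 of Krt17 and 40 of Cyp24a1. This is the only AD cell with UMIs of all of Krt1, Krt10 and Krt77. AD cells 2 and 3, with 16886 and 14003 UMIs, had 132 and 119 UMIs of Krt10, 0 and 0 of Krt1, and 245 and 81 of Krt6a. AD cells 4, 5 and 6, with 45356, 28906 and 44219 UMIs, passed the rule through Krtdap (359, 156 and 227 UMIs) and had 1, 0 and 11 UMIs of Krt10. They were rich in Krt14 (356, 174 and 429 UMIs) and Krt17 (149, 112 and 547 UMIs). The last pair had only 559 and 578 UMIs and passed on 3 UMIs of Krtdap each, so little rests on them.

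In AD the keratins of these cells therefore differed from most Ctrl members. Krt14 had UMIs in 7 AD cells, but Krt5, its usual partner, had 4 UMIs in all, and the pooled levels were 5889 and 19.8 CPM. With the share lowered to 0.25% the log2 ratio of Krt5 turned from -4.29 to 0.90. By the limits used above, 5 AD cells were in the Krt79/Krt17 group (cells 4 to 8, of which the last pair had few UMIs), 4 in the Krt5/Krt14 group and 0 of 8 in the Lor group, which allows a share of up to 37.5%. These AD groups overlapped. AD cells 4, 5 and 6 were in both the Krt79/Krt17 and the Krt5/Krt14 group, with Krt5 and Krt14 at 0.785%, 0.616% and 0.970%.

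**Figure D4:**
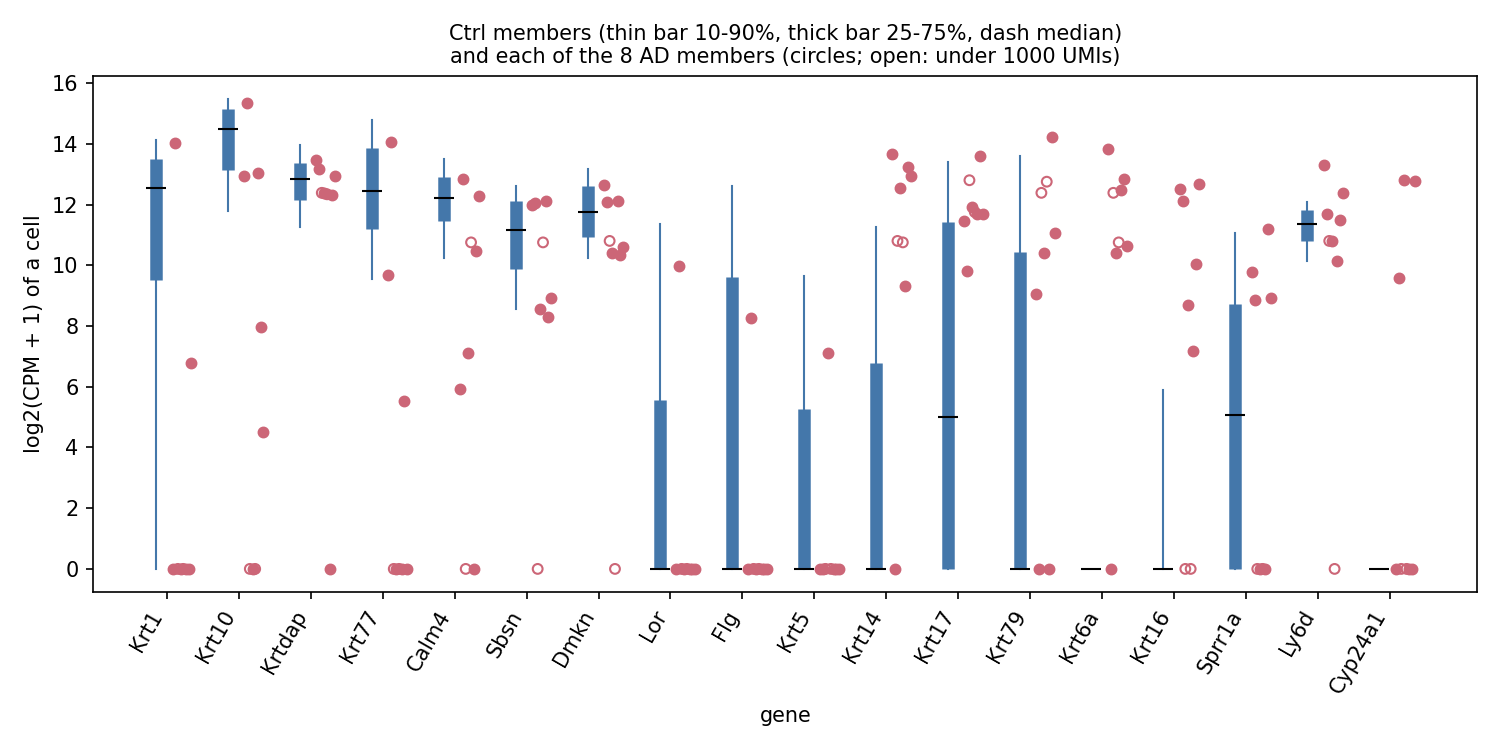
Level of 18 genes as log2 of CPM plus 1 per cell, with bars for the Ctrl members (10% to 90%, 25% to 75% and the median) and circles for each of the 8 AD members (open circles: under 1000 UMIs). The circles of Krt1, Krt77, Lor and Flg are at 0 for most AD cells, whereas those of Krt14, Krt17 and Krt6a are above 0 for at least 7 of 8 cells.

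AD and Ctrl members were then compared across genes as pooled CPM, with 1 CPM added before taking log2 of the ratio of AD over Ctrl. In all, 1827 genes reached 100 CPM in Ctrl or AD members and were ranked. Of these, 226 (12.4%) were at least 2-fold higher in AD and 185 (10.1%) at least 2-fold lower. The median log2 ratio was 0.09. The counting interval lay wholly past 2-fold for 107 of the higher and 81 of the lower genes. A gene at or below 49.5 CPM in one library was ranked only through the other and had to be past 2-fold, which was so for 71 of the higher and 83 of the lower genes. Of the higher genes 202 had UMIs in at least 4 AD cells and 52 had over 50% of their AD UMIs in 1 cell. The first AD cell alone held 25.6% of the AD UMIs, and without it 329 genes were at least 2-fold lower. The groups also differed in makeup, so in the pooled values a different mix of cells and a different level within a cell cannot be told apart.

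Genes of early suprabasal differentiation differed in both directions. Of 20 ranked members of this list 8 were at least 2-fold lower and 1 was at least 2-fold higher, against 10.1% and 12.4% of all ranked genes, with a median log2 ratio of -0.88. For 3 of the 8 the filter fixed the call. Krt77, at 12355 CPM in Ctrl against 4511 CPM in AD, had a log2 ratio of -1.45 (-1.55 to -1.36). This value rests on 1 cell: it was -6.85 without the first AD cell, and -0.006 among members with a share of at least 1% and -0.18 at 5%. The calcium-binding gene Calm4 was at 7230 and 3379 CPM (-1.10) and the desmosomal cadherin gene Dsg1a at 1539 and 410 CPM (-1.91). Calm4 was within 2-fold at a share of at least 1% (-0.45), at 5% (-0.34) and below 2% (-0.91). Without the first AD cell it was at -1.87. Mt4 was at 697 CPM in Ctrl, with UMIs in 51.1% of cells, and at 0 in AD, at least 47.0-fold lower against the floor of 3 counts over the group. Among members with a share below 2%, which include 7 of the 8 AD cells, Mt4 was at 50.5 CPM in Ctrl and the bound was only 2.53-fold. Lgals7 was the exception, at 11327 CPM in Ctrl against 26540 CPM in AD (1.23, 1.19 to 1.27), with UMIs in all 8 AD cells. Sbsn (3511 and 1986 CPM) and Dmkn (5314 and 2786 CPM), which encode secreted proteins of the upper epidermis, were within 2-fold. Their log2 ratios were -1.56 and -1.23 without the first AD cell and -1.29 and -1.31 at a share of at least 0.25%. At 1% they were 0.18 and -0.23. The genes of the rule were at 8379 and 4303 CPM (Krt1), 26568 and 12124 CPM (Krt10) and 9981 and 7006 CPM (Krtdap), which only describes the choice of the cells.

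Genes of the granular layer and the cornified envelope showed the larger differences. Of 19 ranked members 11 were at least 2-fold lower and 3 at least 2-fold higher, against 10.1% and 12.4% of all ranked genes, with a median log2 ratio of -1.13, or -5.63 among members with a share below 2% (-3.49 with the 10 genes at 0 in AD set to their bound). The filter fixed the call for 2 of the 11 and 1 of the 3. Flg was at 3467 CPM in Ctrl against 79.0 CPM in AD (-5.44, -6.26 to -4.76), Lor at 2989 and 257 CPM (-3.54, -3.96 to -3.15) and the involucrin gene Ivl at 537 and 64.2 CPM (-3.04). Each had its AD UMIs in 1 cell. Without the first AD cell Flg and Lor were at 0 in AD, at least 174-fold and 150-fold lower, whereas the log2 ratios were -4.01 and -2.11 at a share of at least 1% and -3.71 and -1.47 at 5%. Lor was at 26274.5 CPM in the Lor group, which it defines, and at 238 CPM in the other Ctrl members. Flg was also higher in that group, so both bounds rest largely on few Ctrl cells. The caspase gene Casp14, which acts in filaggrin breakdown, was at 649 CPM with UMIs in 85.6% of Ctrl cells and at 84.0 CPM in AD (-2.94). Flg2 was at 731 CPM in Ctrl and at 0 in AD, at least 49.3-fold lower, or at least 19.5-fold lower below a share of 2%. These bounds rest on few Ctrl cells. Flg2 was at 6582 CPM in the 28 cells of the Lor group but at 40.1 CPM in the other Ctrl members, where the AD floor was 14.8 CPM. The ones that were higher were Rptn (repetin, 21.1 and 114 CPM, in 1 AD cell, a call fixed by the filter), the transglutaminase gene Tgm1 (61.1 and 208 CPM, in 4 cells) and Cdsn (corneodesmosin, 309 and 622 CPM, in 6 cells). All 5 ranked Lce genes were at 0 in AD and counted as lower, each fixed by the filter, with a median log2 ratio of -7.67, or -3.77 with each gene set to its bound. Lce1m, at 709 CPM in Ctrl, had UMIs in only 4.31% of the Ctrl cells, so 8 cells could not show whether it is absent from AD. Of 3 ranked Sprr genes 2 were higher, Sprr1b (246 and 667 CPM, 1.44, with 95.6% of its AD UMIs in 1 of 2 cells) and Sprr2h (13.5 and 242 CPM, in 1 AD cell, fixed by the filter), while Sprr1a was at 722 and 815 CPM.

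**Figure D5:**
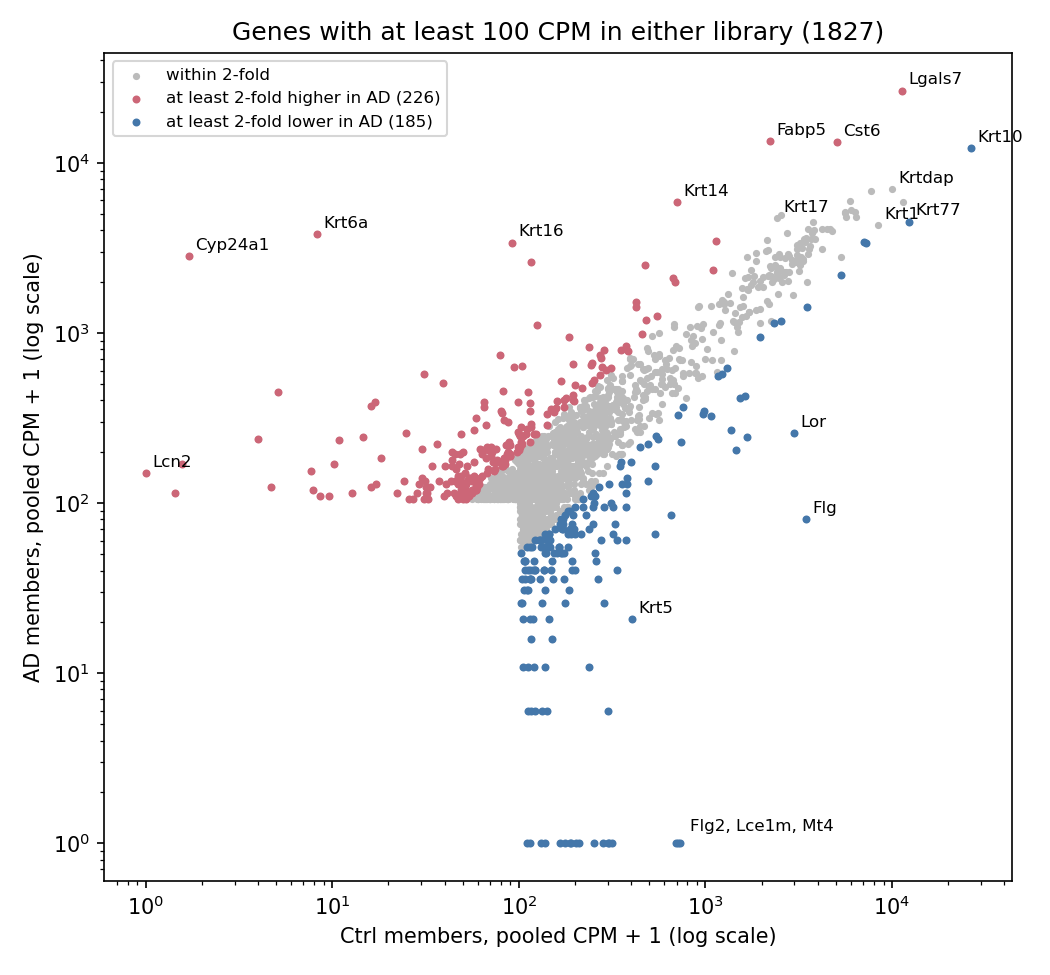
Pooled CPM plus 1 of AD members against Ctrl members (log scales) for the 1827 ranked genes, with the 226 genes at least 2-fold higher and the 185 at least 2-fold lower in AD in color. Cyp24a1, Krt6a and Krt16 lie far above the diagonal, Flg, Lor and Krt5 below it, and Flg2, Lce1m and Mt4 on the floor of AD.

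Of 3 ranked activation keratins 2 were at least 2-fold higher and 0 lower, against 12.4% and 10.1% of all ranked genes. The call of Krt6a was fixed by the filter. Krt6a had 51 UMIs in 13 of the 348 Ctrl members (7.26 CPM) and 768 UMIs in 7 of the 8 AD members (3794 CPM), a log2 ratio of 8.84 (8.62 to 9.47). Krt16 was at 90.5 and 3389 CPM (5.21, 5.07 to 5.39), with UMIs in 14.4% of the Ctrl cells and in 6 AD cells. No AD cell held over 43.4% of the UMIs of either gene, but the first AD cell, alone above a share of 5%, had 0 UMIs of Krt6a and of Krt14. Against Ctrl members above 5%, that cell also had log2 ratios of -0.36 for Fabp5 and -1.54 for S100a6, whose pooled ratios were positive. Krt17 was at 2425 and 4718 CPM (0.96), within 2-fold. In the Krt5/Krt14 KCs outside the rule Krt6a was at 119 CPM in Ctrl against 335 CPM in AD, and Krt16 at 15.6 and 98.3 CPM. The basal list went in both directions, against the same background: of 10 ranked members 6 were at least 2-fold lower, among them Krt5 (405 and 19.8 CPM, -4.29, but 0.90 at a share of at least 0.25%), Col17a1 (137 and 9.88 CPM) and Krt15 (253 CPM and 0), and 3 were higher, Krt14 (700 and 5889 CPM, 3.07), Ifitm3 (42.9 and 198 CPM) and Cxcl14 (31.2 and 114 CPM). All of these calls but that of Krt14 were fixed by the filter, so the counts say little about the list.

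Cyp24a1 had the highest ratio of all ranked genes. It had 5 UMIs in 3 Ctrl members (0.712 CPM, 0.231 to 1.66) and 572 UMIs in 3 AD members (2826 CPM, 2599 to 3067), with 322, 210 and 40 UMIs in the cells. It was not particular to these cells, being at 2019 CPM in the Krt5/Krt14 KCs of AD, 71.6% of which had a UMI, and at 183 CPM over all kept AD cells outside the members, these KCs included. Cells with a Ptprc UMI, in which Cyp24a1 UMIs can come from free RNA, were at 56.0 CPM in AD, with a UMI in 6.89%. The receptor gene Vdr was within 2-fold, at 104 CPM in Ctrl against 128 CPM in AD, and Cyp27b1, which activates vitamin D, was at 0 in both. Of the 16 genes of the vitamin D list, 3 were ranked and 1 was higher, Cyp24a1 itself, whose call was fixed by the filter (background 12.4%).

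Other genes among the 15 highest ratios followed. All of the 15 highest but Krt16 and S100a6 were at or below 49.5 CPM in Ctrl. Their calls past 2-fold were therefore fixed by the filter, as were those of all 15 lowest. Lrat, which makes retinyl esters, was at 2.99 and 237 CPM (5.90), but at -1.52 with a share of at least 1% and -0.69 at 5%. The glutathione peroxidase gene Gpx2 had 4 UMIs in Ctrl and 34 in AD (168 CPM, in 6 cells), and the glutathione transferase gene Mgst1 had 112 and 79 UMIs (390 CPM in AD). S100a6 was at 116 and 2614 CPM (4.49), in all 8 AD cells. Lcn2 (lipocalin-2, an iron-binding antimicrobial protein) had 0 UMIs in Ctrl and 30 in AD, at least 347-fold higher against the Ctrl floor, but 28 of these were in 1 cell. Also among the 15 highest, Cryab (450 CPM in AD), Tubb3 (114 CPM), Fxyd4 (371 CPM), 2610528A11Rik (232 CPM), Tnnt2 (153 CPM) and Ass1 (124 CPM), were each in 2 or 3 AD cells. The log2 ratio also turned negative for Ass1 (-2.05) and Mgst1 (-0.03) at a share of at least 1%, and at 5% for these (-1.16 and -2.57) and for Cryab (-2.23). Of the 15 lowest, all at 0 in AD, Flg2, Lce1m, Lce1a1, Lce1a2, Lce1c, Lce1b, Mt4, Wfdc21, Krt15, Krt23, Slurp1 and Ndufa4l2 are epidermal or widely expressed genes, and the remaining ones, Col1a2 (299 CPM in Ctrl), Col3a1 (137 CPM) and Hbb-bs (282 CPM), are genes of fibroblasts and erythrocytes. Their CPM in the other Ctrl cells was 8802, 5233 and 559, and their part as carried-over RNA was not tested.

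Protease inhibitors and kallikreins were among the higher genes. Of 9 ranked serpins and cystatins 4 were at least 2-fold higher and 0 lower, against 12.4% and 10.1% of all ranked genes, with Cst6 at 5088 and 13240 CPM (1.38), the stefin gene Cstdc5 at 473 and 2515 CPM (2.41), Stfa1 at 78.1 and 736 CPM (3.22) and Cstb at 665 and 2110 CPM (1.66). The call of Cst6 was lost at a share of at least 0.25% (0.65), at 1% (0.54), at 5% (-0.17) and below 2% (0.46). It was also lost in the Krt79/Krt17 group (-0.36), whereas without the first AD cell Cst6 was at 1.77. Stefin genes are near-identical copies, so their split is uncertain. Of 13 ranked proteases and their inhibitors 7 were higher, 2 of them by the filter, and 2 lower. Klk6 was at 123 and 1107 CPM (3.15) and Klk13 (one of these 2) at 38.3 and 509 CPM (3.70), and the lysosomal cathepsin gene Ctsl at 168 and 519 CPM (1.62). Lower were Klk5 (555 and 237 CPM, -1.22) and the membrane protease gene Tmprss4 (325 and 74.1 CPM, -2.12). Spink5, which inhibits the kallikreins of desquamation, was at 1857 and 2658 CPM. Of 7 ranked antimicrobial genes 5 were higher, among them Defb6 (422 and 1512 CPM, 1.84), whose call was not fixed by the filter. The filter fixed the calls of 3 of the 5, Lcn2, Slpi and Chil1. Wfdc21 was lower (316 CPM and 0), a call also fixed by the filter. S100a8 and S100a9, which inflamed KCs can make in quantity, had 1 and 7 UMIs in the AD members. S100a9 was at 33.6 CPM in Ctrl against 34.6 CPM in AD.

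The lipid list was mixed. Fabp5, a fatty acid-binding protein of epidermis, was at 2224 CPM in Ctrl against 13334 CPM in AD (2.58, 2.52 to 2.64), in 7 AD cells. Its log2 ratio was 3.92 below a share of 2%, but -0.34 at a share of at least 1% and -0.36 at 5%. Of 19 ranked members 2 were at least 2-fold higher and 7 at least 2-fold lower (2 of these by the filter), against 12.4% and 10.1% of all ranked genes, among them Elovl4 (966 and 331 CPM, -1.54) and Elovl1 (377 and 138 CPM, -1.44), which lengthen the acyl chains of barrier ceramides, Acer1 (191 and 74.1 CPM, -1.35) and the lipoxygenase gene Alox12e (109 CPM and 0). Of 19 ranked cell junction genes 3 were higher and 3 lower, with 1 and 2 of these fixed by the filter. Dsp was at 4212 and 3098 CPM and Perp at 3848 and 3537 CPM, while Dsg3, the desmoglein of the lower layers, was at 30.9 and 124 CPM, a call fixed by the filter, and Dsc3 was lower (981 and 346 CPM). Of 31 ranked proteasome genes 8 were higher and 0 lower (median 0.84), where the background was again 12.4% and 10.1%, and of 79 ranked ribosomal protein genes 0 were past 2-fold in either direction (median -0.06).

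Transcription factors of the epidermis were at least 2-fold higher for 4.76% and lower for 9.52% of ranked members, against 12.4% and 10.1% of all ranked genes. Of 21 ranked members 1 was higher, Ehf (46.6 and 138 CPM, fixed by the filter), and 2 were lower, Gata3 (335 and 59.3 CPM, -2.48) and Rora (542 and 247 CPM, -1.13), while Klf4 was at 1859 and 1359 CPM. Of 6 ranked members of the EGF family 1 was higher, the ligand gene Epgn (49.1 and 104 CPM), again fixed by the filter. The immediate early and heat shock genes, which respond to tissue dissociation, were at least 2-fold lower in AD for 5 of 22 ranked members (1 of them by the filter) and higher for 0, with Dusp1 at 1632 and 425 CPM and Fos at 2458 and 1695 CPM. Of 11 ranked genes of the mitochondrial genome 4 were lower, and the median mitochondrial share was 3.01% of UMIs in the Ctrl members and 1.65% in the AD members. The part of cell handling in these values was not tested. Oxidative phosphorylation (4 of 66 higher and 1, Ndufa4l2, lower by the filter), glycolysis (2 of 12 higher, 1 lower), redox and metallothionein genes (3 of 8 higher, with Gpx2 fixed by the filter, and 1 lower), other S100 genes (3 of 5 higher, 0 lower), MHC class I (0 of 4 in either direction) and proliferation genes (0 of 2) completed the ranked lists.

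None of the 24 genes of the cytokine list, the 20 of the chemokine list and the 33 of the interferon list reached 100 CPM in either library. The chemokine gene Cxcl14 (114 CPM in AD) and the interferon-induced gene Ifitm3 (198 CPM in AD) did, but stood in the basal list and are not counted here. Tslp, the KC cytokine of AD, had 16 UMIs in Ctrl (2.28 CPM) and 1 UMI in AD (4.94 CPM), a ratio whose interval ran from -4.27 to 3.80 on the log2 scale, so that no difference was detectable at this depth. Il33 had 30 UMIs and 0, and Il1a 46 and 6 (6.55 and 29.6 CPM). Ccl20, which attracts Ccr6 cells, had 654 UMIs in Ctrl (93.2 CPM, in 19.8% of cells) and 2 in AD (9.88 CPM), and Ccl27a 544 UMIs and 1. Cxcl10 had 149 UMIs in Ctrl and 0 in AD, a count that the AD floor does not separate from the Ctrl level of 21.2 CPM by more than 1.43-fold. Of the receptors and kinases that JAK inhibitors act through, 5 of 34 were ranked. Jak1 was at 242 and 133 CPM, Stat3 at 151 and 217 CPM and Il13ra1, the shared IL-4 and IL-13 receptor chain of epithelia, at 65.8 and 124 CPM, all within 2-fold. Lower were Il20rb (169 and 49.4 CPM, -1.76) and Il6ra (119 and 9.88 CPM, -3.47), both fixed by the filter, where 10.1% of all ranked genes were lower. Il4ra had 67 UMIs in Ctrl and 4 in AD (9.54 and 19.8 CPM), and Osmr 69 and 7 (9.83 and 34.6 CPM).

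Because most AD members reached the Krt79/Krt17 limit, the 91 Ctrl and 5 AD cells of this group were set side by side. Krt17 is also an activation keratin, and AD cells 4 and 5 had more of it (149 and 112 UMIs) than of Krt79 (98 and 39 UMIs). Krt79 and Krt17 define the group and are not compared. AD cells 4, 5 and 6 were also in the Krt5/Krt14 group, against 1 of the Ctrl cells, so the 2 sides differed in makeup. Cst6 was at 18090 CPM in Ctrl against 14078 CPM in AD and Defb6 at 1569 and 1714 CPM, with 56.3% and 58.8% of the UMIs of all AD members in 1 cell. Krt6a was at 0.622 CPM in Ctrl against 3695 CPM in AD, Krt16 at 21.2 and 2984 CPM, Krt14 at 409 and 8034 CPM and Fabp5 at 1592 and 21468 CPM. Most of the Krt16 UMIs were in AD cell 4 (298), with 12, 47, 0 and 0 in AD cells 5 to 8. AD cell 6, far inside the group, was at 1063 CPM of Krt16. Cyp24a1 was at 3.11 and 4447 CPM. All of its UMIs in this AD group were in AD cells 4 and 5 (322 and 210). These cells lay close to the 0.5% limit, at 0.545% and 0.522%, and AD cells 6, 7 and 8, at 3.14%, 1.25% and 1.04%, had 0. Krt77 was at 3477 and 16.7 CPM. Krt10 (10775 and 100 CPM) and Krt1 (1983 and 41.8 CPM) are genes of the rule, which these AD cells passed through Krtdap, so their values describe the choice of cells. In this group, too, Krt6a and Krt16 were higher and Krt77 lower in the AD cells, whereas Cst6, higher in the pooled comparison, was not. In members with a share below 2% (95 Ctrl and 7 AD cells, without the first AD cell), Krt6a and Krt16 had log2 ratios of 9.14 and 6.51, Krt77 of -4.57, Krt14 of 1.65 and Fabp5 of 3.92.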

How the data were processed

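Mouse dorsal skin was measured with 10x 3′ single-cell RNA-seq (v3.1). The authors deposited raw counts of UMIs per gene and barcode, aligned to mm10, with no normalization. Matrix headers name Cell Ranger 5.0.0, the submitters' processing notes 3.1.0 with Seurat 5.0, and the study's design text 6.0.0. Depth was 125184653 UMIs over 12598 barcodes in Ctrl and 76106062 over 8778 in AD. The members and gene lists were chosen with earlier results of these data known. Another hair keratin of the rule was not used here. UMIs of members were summed per library to CPM. Intervals are exact Poisson, Clopper-Pearson or, for ratios, from the binomial split of UMIs, and with 1 library per group no test was made. Genes are named by list, as the 15 highest and 15 lowest ratios (mitochondrial genes and genes of the rule left out) and as the most abundant; receptors and cytokines are given at any level. Scrublet in scanpy 1.11.5 called 429 Ctrl barcodes, 5 of them members (1.44%), at a threshold of 0.195. It called 0 AD barcodes at a threshold of 0.614, so it says little about doublets there. No doublet was removed. Some genes that the rule names are not reported here. Python 3.11.15, numpy 2.4.6, scipy 1.17.1, pandas 2.3.3 and matplotlib 3.10.9 were used. Alternatives varied cell filters, thresholds, weighting and the added CPM.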

Additional observations from a re-analysis of the deposited data

How the results depend on the processing

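No paired analysis was possible because each group is 1 library, and for the same reason no replicate could be left out. The percent of kept cells that met the rule was 3.41% in Ctrl with a share of at least 0.25%, 2.67% at 1% and 1.14% at 5%, and 3.89% when cells with Pdgfra, Ptprc or Pecam1 were kept. In AD it was 0.171% at 0.25%, 0.0245% at 1% and 0.0122% at 5%. Genes at least 2-fold higher in AD numbered 370 at a share of 1%, 347 at 5%, 340 in members with Krt79 and Krt17, 568 with the mean of each cell's CPM, 1375 after thinning to 1000 UMIs, 413 at 50 CPM, 1369 at 10 UMIs and 107 with the interval wholly past 2-fold. Genes at least 2-fold lower numbered 287 below a share of 2%, 329 without the AD cell of the highest share, 328 in members with Krt79 and Krt17, 330 with the mean per cell, 556 after thinning, 303 as a mean over 3 classes of the basal share, 378 at 50 CPM, 3467 at 10 UMIs and 81 with the interval wholly past 2-fold. The log2 ratio changed sign for Krt5 at 0.25% (0.90), and at 1% for Lrat (-1.52), Ass1 (-2.05), Mgst1 (-0.029) and Fabp5 (-0.34). At 5%, where AD is the first cell alone, it changed sign for Krt6a (-3.07), Cryab (-2.23), Lrat (-0.69), Ass1 (-1.16), Mgst1 (-2.57), S100a6 (-1.54), Krt14 (-6.37), Fabp5 (-0.36) and Cst6 (-0.17). It also changed sign for Gpx2 after thinning (-1.98), Ass1 over these 3 classes (-0.26) and Cst6 in members with Krt79 and Krt17 (-0.36). These 17 were the sign changes of genes past 2-fold among 683 values of 43 named genes. A further 14 were of Krt79, Krt17, Vdr and Sbsn, which were within 2-fold: at 1% Krt79 was at -4.01, Krt17 at -0.51, Vdr at -0.67 and Sbsn at 0.18, at 5% Krt79 was at -5.58, and below 2% Krt79 was at -0.27 and Krt17 at -0.31. Keeping the cells with the 3 marker genes, the share below 2%, leaving out the AD cell of the highest share and the members with Krt79 and Krt17 were chosen after seeing the data. With 8 AD cells, a gene carried by few Ctrl cells could not be judged absent.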
